A study of Mus musculus with 51 samples.

Results

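Of the 24538 genes in each of the 9 tables of FPKM (fragments per kilobase of transcript, scaled to the mapped fragments of a library), 10 genes of blood and endothelial progenitors were selected by symbol. They were Kdr, Etv2, Tal1, Lmo2, Runx1, Gata1, Gata2, Fli1, Cdh5 and Pecam1, and all 10 were found in every table. The 18 RNA-seq samples came from mouse ES cells and from mesoderm made of them with Bmp4 (20 ng/ml) over 3 days, after removal of feeder cells. WT cells of the F1G4 line gave 2 samples at each of 4 stages, the ES stage and days 1, 2 and 3. By ES the study means the embryoid body stage, aggregates of ES cells to which no Bmp4 had yet been added. Values given below for ES cells or the ES state are from this stage. Lines with a KO of Eomes, of T or of both (Eomes/T dKO) gave 1 sample each on day 2 and on day 3 by the labels, whereas legends of the study call such values averages of replicates. The Eomes KO and T KO lines had been made from F1G4 cells with paired Cas9 nickases, and the dKO line from the Eomes KO line. Smad4 KO cells and WT cells of the same conditional line (strain 129S/SvEvxC57BL/6) were sampled on days 1 and 2, with 1 sample each. The Smad4 KO had been made with Cre on a floxed first exon and grown out from a clone, and the other KO lines are clonal too, so that an effect of a KO and one of its clone cannot be told apart.

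Blood and endothelial cells arise close together in the early embryo, from mesoderm that carries Kdr, a receptor for the growth factor VEGF. The ETS factor Etv2 is required for both lineages, and Tal1, Lmo2 and Gata2 work downstream of or together with it in hemangiogenic progenitors. Gata1 is the master regulator of red blood cells, Runx1 is required for blood stem cells to emerge from endothelium, and Fli1 is an ETS factor of both lineages. Cdh5 (VE-cadherin) and Pecam1 (CD31) are adhesion proteins of the junctions between endothelial cells, and Pecam1 is also known as a surface protein of mouse ES cells.

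RefSeq promoter windows of 300 bases (250 before and 50 after a start site of the gene, GRCm38.p6) were found for 6 of the 10 genes, in 9 windows. Those of Kdr, Etv2 and Gata2 are shown because the results below turn on these genes: Kdr and Etv2 were lower on day 3 in each line without Eomes or T, and Gata2 was lower in the Smad4 KO. They lie at chr5:75978406-75978705 (minus strand) for Kdr, chr7:30635803-30636102 (minus strand) for Etv2, and chr6:88193641-88193940 and chr6:88198414-88198713 (plus strand) for the windows of Gata2. Capitals mark matches, on either strand, to the GATA motif (AGATAA or TGATAA), the ETS motif (GGAAGT), the T-box motif (GGTGTGA), the TCF/LEF motif (CTTTGAA) or the SMAD motif (GTCTAGA).
Kdr: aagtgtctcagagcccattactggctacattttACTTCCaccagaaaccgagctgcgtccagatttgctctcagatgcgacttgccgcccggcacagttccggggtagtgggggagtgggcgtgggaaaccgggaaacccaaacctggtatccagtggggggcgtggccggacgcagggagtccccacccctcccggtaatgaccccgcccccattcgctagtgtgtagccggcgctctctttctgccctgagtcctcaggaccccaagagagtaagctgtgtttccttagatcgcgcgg
Etv2: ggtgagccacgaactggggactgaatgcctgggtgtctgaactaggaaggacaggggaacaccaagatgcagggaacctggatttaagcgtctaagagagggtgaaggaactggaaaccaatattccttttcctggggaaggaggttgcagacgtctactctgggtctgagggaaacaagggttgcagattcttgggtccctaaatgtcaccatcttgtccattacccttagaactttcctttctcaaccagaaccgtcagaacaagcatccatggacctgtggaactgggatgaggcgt
Gata2, window 1: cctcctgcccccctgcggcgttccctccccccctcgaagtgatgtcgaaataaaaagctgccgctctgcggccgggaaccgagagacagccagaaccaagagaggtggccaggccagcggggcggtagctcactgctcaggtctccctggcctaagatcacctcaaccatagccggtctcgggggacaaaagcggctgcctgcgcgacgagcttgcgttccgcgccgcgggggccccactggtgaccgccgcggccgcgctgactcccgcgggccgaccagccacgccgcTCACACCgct
Gata2, window 2: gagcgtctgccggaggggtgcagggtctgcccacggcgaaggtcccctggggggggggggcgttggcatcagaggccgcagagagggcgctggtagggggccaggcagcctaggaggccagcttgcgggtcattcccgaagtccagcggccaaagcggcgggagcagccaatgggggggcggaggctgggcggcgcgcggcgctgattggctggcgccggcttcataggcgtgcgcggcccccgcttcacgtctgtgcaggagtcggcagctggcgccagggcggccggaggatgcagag
The window of Kdr held an ETS motif 217 bases before its start site, and the upstream window of Gata2 held a T-box motif 41 bases after its own. The windows of Kdr and Etv2 lie inside the gene spans given below, so their start sites are not the ends of those spans. The window of Etv2 held none of these letters. Over the 9 windows, 1 held the GATA motif (in Tal1), 1 the ETS motif and 1 the T-box motif, and 0 held the TCF/LEF or the SMAD motif. Of all 32851 windows of this length, 18.6% held the GATA motif, 23.8% the ETS motif, 3.98% the T-box motif, 5.14% the TCF/LEF motif and 2.19% the SMAD motif. E-boxes (CANNTG), which are not in capitals, were found in 5 of the 9 windows against 72.3% of all windows. No marked matches overlapped each other, and a match of letters does not show that a factor binds there.

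Each table gives only 1 value per gene and condition. The values came in steps, however, which allowed the fragments behind them to be recovered. For genes with a single RefSeq transcript, 94.1% to 95.1% of the values of up to 20 fragments in the 10 columns of KO cells and of the Smad4 line lay within 0.1 of a whole multiple of 1 step, as for 1 library. In the 10 columns of F1G4 WT cells only 33.2% to 46.9% did, and the values were sums of multiples of 2 steps, as for the mean of 2 libraries. From the steps, the libraries corresponded to 18100000 to 37400000 fragments. Fragments in each library could be read for 5 of the genes, Kdr, Etv2, Gata1, Fli1 and Cdh5, and for the other 5 only about, as no length made all their values whole. Kdr has 2 RefSeq transcripts too, of 4020 and 5921 bases. All its fragment numbers rest on an inferred length of 5451 bases, which matches neither and at which every value was whole. Which of the 2 libraries belongs to which replicate is not known. The tables were scaled separately, and the WT values of a stage differ slightly between them. Values of a WT library and levels set across tables are on the scale of the table that holds them, the WT libraries on that of the time course, and every ratio was taken within a table.

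No p-value is given for a single gene, since neither 2 libraries against 2 nor 2 against 1 can reach a two-sided exact permutation p below 0.333. The spread between the WT libraries serves in its place. Of genes at FPKM 1 to 5 that could be divided between the 2 F1G4 WT libraries, 12.3% differed more than 2-fold between them on day 2 (1325 genes) and 17.8% on day 3 (1265 genes). At FPKM 0.1 to 1 the shares were 44.5% and 55.3%. A difference of 2-fold below FPKM 1 was therefore common between replicates of the same cells. Intervals given below are 95% Poisson or exact binomial intervals and cover counting error only, and they are too narrow. Among 117 genes with exactly 2 fragments in the day 3 WT libraries, 101 had both in the same library.

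By the rule of the study, only genes above FPKM 1 in at least 1 of the groups compared were examined, and those with a log2 ratio beyond 1 or -1 were called. No pseudocount was added. Targeted genes were low in the lines so labelled, with Eomes at 0.276 in the Eomes KO against 20.3 in WT on day 3, and T at 3.00 in the T KO against 323. In the dKO they were at 0.346 and 1.93. On day 2 the differences were smaller, with Eomes at 2.42 in the Eomes KO against 9.42 in WT, and T at 6.64 in the T KO against 44.8. Eomes and T in the dKO were then at 1.24 and 2.77, so the targeted genes were above FPKM 1 on day 2 in all 3 lines. The study cut out the promoter and first exon of these genes. By RT-PCR and western blotting it reports no Eomes or T transcript or protein in the differentiated KO cells. FPKM also covers the other exons, so these values do not measure how complete a KO was. Smad4 itself was at 46.8 in the Smad4 KO and 39.3 in WT on day 2, and since the value covers the exons outside the deleted one, it does not check the label. The sums of FPKM ran from 401510 to 608585 per column, and the median log2 ratio of genes at FPKM 1 or above in both groups stayed between -0.067 and 0.006 in all comparisons. A trend of the ratios with GC content and length, estimated over all genes, amounted to at most 0.278 on the log2 scale for any of the 10 genes. In bulk samples, fewer cells of a type and less RNA per cell cannot be told apart.

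Through the WT time course 4 of the 10 genes stood above FPKM 1 at some stage, Etv2, Lmo2, Gata2 and Pecam1. The other 6 never passed FPKM 1 in any of the 14 conditions. From the ES state to day 3, Gata2 and Lmo2 rose and Pecam1 fell, so that 3 of 4 examined genes were called, against 31.1% of all 11556 genes examined (12.6% lower and 18.5% higher). The median log2 ratio of all 10 genes, with a pseudocount of 0.1, was 0.447 over these 3 days, and that of all genes examined was -0.021. Here and below, medians of the 10 genes or of a list include genes below FPKM 1. Those of all genes examined do not, so the sets compared are unlike.

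**Figure D1:**
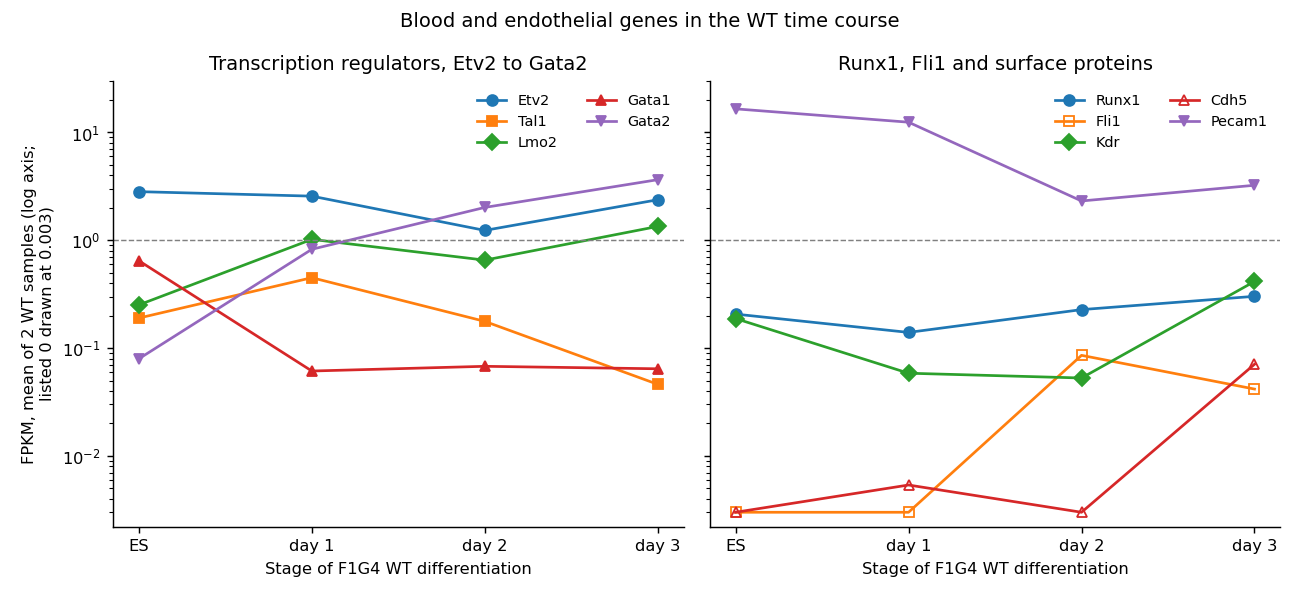
FPKM (log axis) of the 10 genes at the 4 stages of the F1G4 WT time course, each point the authors' mean of 2 samples, with a listed 0 drawn at 0.003 and the dashed line at FPKM 1. Gata2 was higher at each later stage, up to 3.65, Pecam1 started at 16.6 and dropped by day 2, and Kdr was highest on day 3, at 0.415.

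Kdr (5:75932827-75979072, mm10) was low in WT cells until day 3. The 2 libraries held 24 and 26 of its fragments in the ES state (FPKM 0.157 and 0.219), 12 and 4 on day 1 (0.0855 and 0.0314), 7 and 8 on day 2 (0.0466 and 0.0590), and 61 and 64 on day 3 (0.385 and 0.444). The day 3 libraries, with intervals of 0.295 to 0.495 and 0.342 to 0.567, were above all others, although 1 ES library had an interval reaching 0.320. The libraries of days 1 and 2 overlapped. The mean was 7.86-fold higher on day 3 than on day 2, a log2 ratio of 2.97, but at 0.415 Kdr stayed below the minimum of the rule.

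Etv2 (7:30633616-30636509) was above FPKM 1 at every WT stage, the ES state included. Its libraries held 94 and 56 fragments in the ES state (FPKM 3.20 and 2.45), 37 and 31 on day 2 (1.28 and 1.19), and 70 and 68 on day 3 (2.30 and 2.45). The mean of day 1, which could not be divided, was 2.57. The level in F1G4 cells thus dipped on day 2, with no overlap of the day 2 libraries with those of the ES state or day 3. WT cells of the Smad4 line, with 1 sample per day, did not show the fall, at 1.70 on day 1 and 2.14 on day 2. The fall from day 1 to day 2 was called, with a log2 ratio of -1.06, whereas the rise to day 3, 0.94, did not pass the limit.

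Among the partners of Etv2, Lmo2 (2:103957903-103981878), a bridging protein between Tal1 and GATA factors, was at FPKM 0.252 in the ES state, 1.02 on day 1, 0.654 on day 2 and 1.34 on day 3. It rose from the ES state to day 1 (log2 ratio 2.02), the only one of 3 examined genes called there, against 13.5% of 11030 genes (5.84% lower and 7.7% higher). It rose again from day 2 to day 3 (1.04), the only one of 4, against 10.2% of 11396 genes (4.06% lower and 6.14% higher). Tal1 (4:115056426-115071755), the bHLH factor of this complex, went another way, with FPKM 0.190, 0.450, 0.177 and 0.0461 from the ES state to day 3. These values correspond to about 39, 93, 39 and 11 fragments in both libraries together. The lowest WT level of Tal1 was thus on day 3, the stage with the highest WT level of Lmo2.

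The GATA factors differed in their course. Gata2 (6:88193891-88207032), a factor of early blood progenitors that is also expressed in trophoblast, was higher at each later stage of F1G4 cells, with FPKM 0.0796, 0.825, 2.02 and 3.65. The log2 ratio from the ES state to day 3 was 5.52, on about 12 to 13 fragments in ES cells. The step from day 1 to day 2 was called (1.29). With the falls of Etv2 and Pecam1, 3 of 4 examined genes were called over this step, against 11.3% of 11262 genes (4.13% lower and 7.17% higher). Gata1 (X:7959260-7976663) was highest in ES cells, with 29 and 31 fragments (FPKM 0.544 and 0.747). On day 1 its libraries held 6 and 0 fragments, and on days 2 and 3 they held 6 and 1, so that from day 1 on the 2 replicates differed by more than the means of the stages.

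Runx1, Fli1 and Cdh5 stayed below FPKM 1 throughout, in contrast to Pecam1. Runx1 (16:92601466-92826074) lay between FPKM 0.140 on day 1 and 0.302 on day 3. Fli1 (9:32422204-32543432) had 0 fragments in the 4 libraries of ES cells and day 1, which allows up to 3 per library. On day 2 its libraries held 15 and 0 fragments and on day 3 they held 0 and 7, so it was seen in only 1 replicate at either stage. Cdh5 (8:104101613-104144504) had no fragment in ES cells and on day 2, 0 and 1 on day 1, and 1 and 14 on day 3, where the FPKM of 0.133 in 1 library was not matched in the other. Pecam1 (11:106654213-106715281) was the gene with the highest FPKM among the 10 up to day 2, with 16.6 in ES cells and 12.5, 2.32 and 3.24 on the following days. It fell 5.38-fold from day 1 to day 2 (log2 ratio -2.43). The summed FPKM of 8 pluripotency genes was 2040, 1010, 941 and 637 at the same stages, and the part of those cells in the level of Pecam1 was not tested. Antisense or other genes overlap Lmo2, Runx1, Fli1 and Cdh5, and as the strand setting of the counting is not stated, their reads may be mixed.

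The WT cells of the Smad4 line gave a further look at these levels. On day 2 Gata2 was at 1.49 there and at 2.02 in F1G4 cells, Etv2 at 2.14 and 1.23, Lmo2 at 0.579 and 0.654, and Pecam1 at 1.16 and 2.32. On day 1 Gata2 was at 1.62 and 0.825, in that order, and Etv2 at 1.70 and 2.57. Of the genes at FPKM 1 to 10, 8.54% differed more than 2-fold between these WT lines on day 2 and 16.4% on day 1, after the median ratio was set to 1. The order of Etv2 between the lines was opposite on the 2 days. From day 1 to day 2 Etv2 was thus higher in the Smad4 line, where it fell in F1G4 cells. Gata2, which rose in F1G4 cells, was at 1.62 and then 1.49 in the Smad4 line.

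The KO lines of the mesodermal T-box factors Eomes and T ask which of the 10 genes differ without them. On day 3 Etv2 and Lmo2 were lower than in WT in all 3 lines, and so was Kdr, below the minimum. In the Eomes KO 3 of 4 examined genes were called, Etv2 and Lmo2 lower and Pecam1 higher, against 16.4% of 11629 genes (9.01% lower and 7.39% higher). In the T KO 2 of 4 were called, both lower, against 6.04% of 11239 genes (3.92% lower and 2.12% higher). In the dKO 2 of 4 were called, both lower, against 11.0% of 11473 genes (5.53% lower and 5.51% higher). The median log2 ratios of all 10 genes, with a pseudocount of 0.1, were -0.254, -0.416 and -0.305 in these lines, and those of all genes examined -0.041, -0.012 and -0.031. The 3 lines were compared with the same WT samples, so their results are not independent of each other.

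Kdr had few or no fragments in these KO lines on day 3. Against 61 and 64 fragments in the WT libraries, the Eomes KO library held 0, the T KO library 3 and the dKO library 7. All KO libraries were below both WT libraries, and no intervals overlapped between WT (lowest bound FPKM 0.295) and KO (highest bound 0.131). WT was 19.2-fold above a floor of 3 fragments in the Eomes KO (FPKM 0.0225), and the exact 95% lower bound of the fold was 15.3. It was 28.4-fold higher than the T KO (95% interval 9.48 to 139) and 6.77-fold higher than the dKO (3.19 to 17.2). Taking either WT library alone, the log2 ratio was -4.72 or -4.93 in the T KO and -2.66 or -2.86 in the dKO.

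Etv2 fell on day 3 in each line. Its FPKM was 0.547 in the Eomes KO (14 fragments), 0.459 in the T KO (18 fragments) and 0.990 in the dKO (21 fragments), against 2.30 and 2.45 in the WT libraries. Every KO value was below both WT values, and the interval of the dKO, 0.613 to 1.51, ended below the WT intervals, which began at 1.79. The log2 ratios were -2.18, -2.39 and -1.32. With either WT library alone they were -2.14 or -2.23, -2.34 or -2.43, and -1.27 or -1.36, past the limit in each case. The intervals of the 3 KO lines overlapped, and as each line had 1 library and the intervals cover counting error only, no order among them was drawn.

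**Figure D2:**
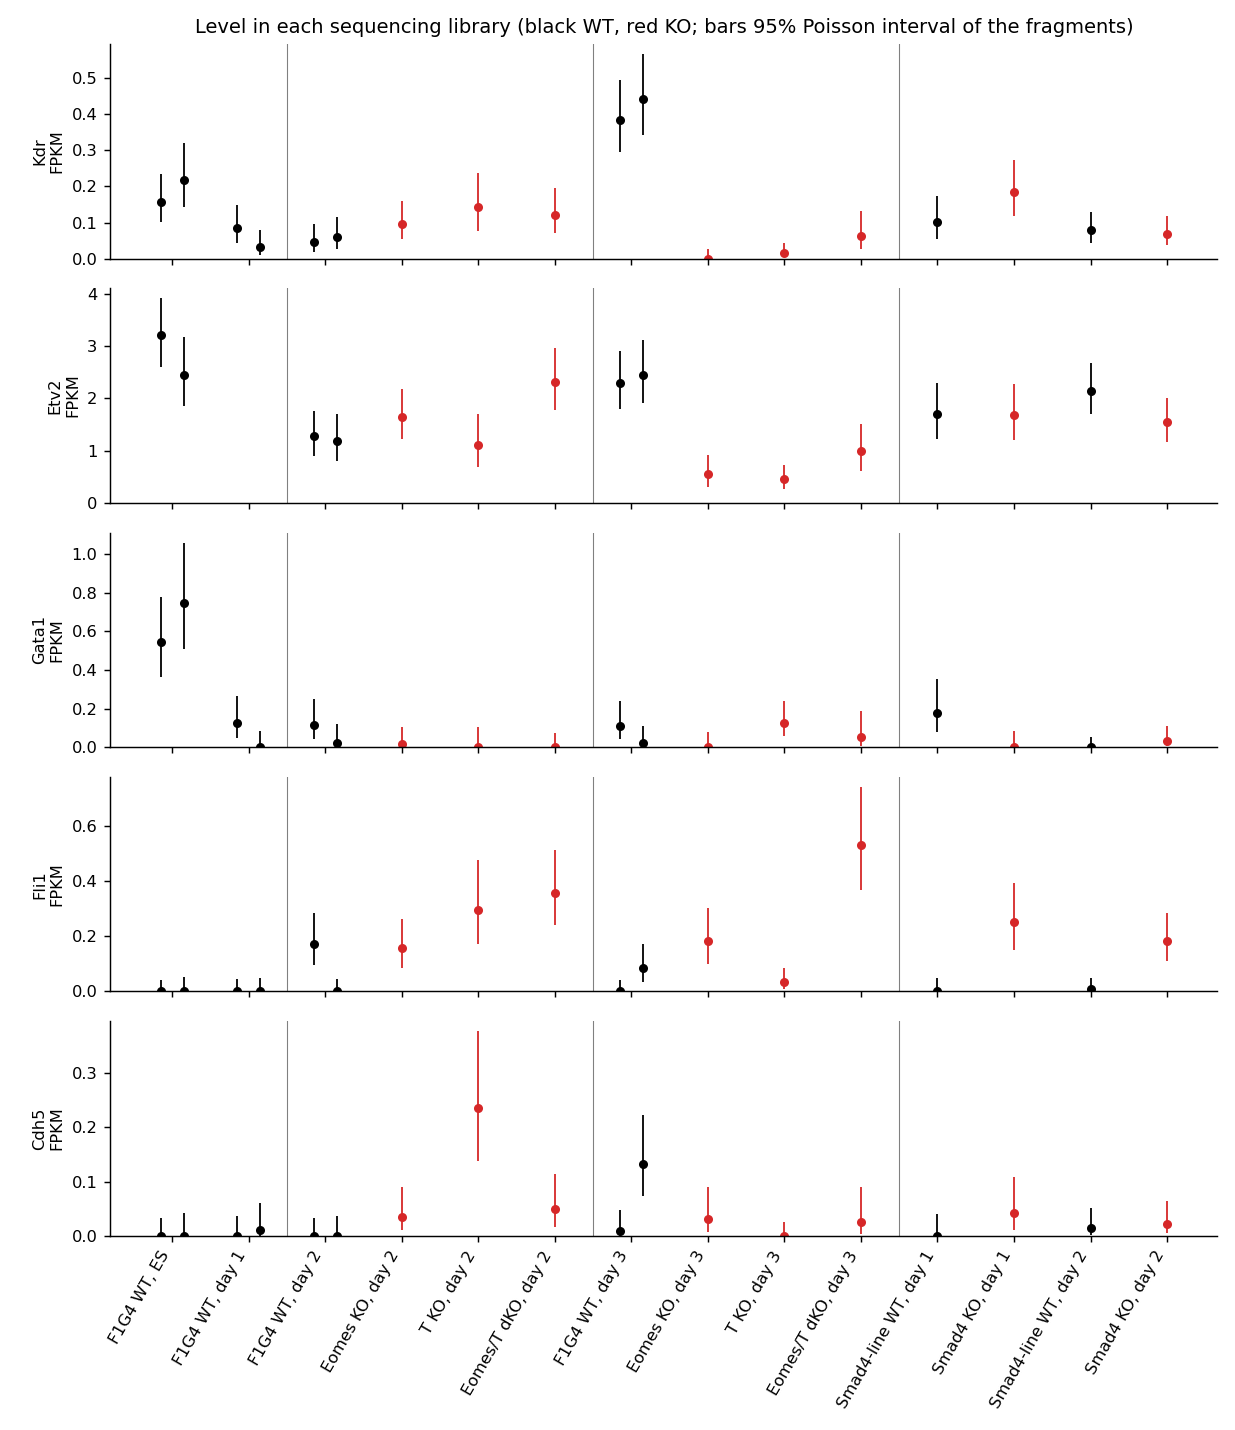
FPKM of Kdr, Etv2, Gata1, Fli1 and Cdh5 in each library, recovered from the steps of the FPKM values, by line and stage, with 95% Poisson intervals of the fragments (black WT, red KO). On day 3 Kdr and Etv2 lay lower in all 3 KO libraries than in both WT libraries, whereas the WT libraries of Fli1 and Cdh5 differed from each other. Etv2 on WT day 1 is missing because its mean could not be divided.

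Lmo2 fell furthest in the single mutants. On day 3 it was at FPKM 0.107 in the Eomes KO (about 4 fragments), 0.140 in the T KO (about 8 to 9) and 0.681 in the dKO (about 21 to 23), against 1.40, 1.36 and 1.40 in the WT columns of the same tables. The log2 ratios were -3.71, -3.28 and -1.04, and the last passed the limit by little and failed it with a pseudocount of 0.1 (-0.94) and with the WT column of the time course (-0.98). The WT libraries together held about 113 to 122 fragments. Lmo2 in the dKO thus lay between WT and the Eomes KO line from which the dKO was derived, with 1 library each. On day 2 the direction was opposite: Lmo2 was higher than WT in the Eomes KO (1.46 against 0.648, log2 ratio 1.18) and in the dKO (1.61 against 0.647, 1.31), and near WT in the T KO (0.723 against 0.675). These KO values were on about 63 to 68, 63 to 68 and 20 to 22 fragments. Both day 2 calls were lost with a pseudocount of 1 (0.58 in the Eomes KO and 0.66 in the dKO). They were also lost as TPM (0.96 and 0.91), which lowered all log2 ratios of each comparison alike.

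The other members above FPKM 1 were within 2-fold of WT on day 2, whereas in each line some of those below it were not, on few fragments. Of 4 examined genes 1 was called in the Eomes KO and 1 in the dKO, Lmo2 in both, against 7.52% of 11226 genes (4.17% lower and 3.35% higher) and 7.99% of 11195 genes (4.5% lower and 3.48% higher). None of 3 examined was called in the T KO, where 15.6% of 11359 genes were (9.93% lower and 5.7% higher). Etv2 was at 1.65 in the Eomes KO, 1.11 in the T KO and 2.31 in the dKO, against 1.28 and 1.19 in the WT libraries. The dKO library held 62 fragments and was above both WT libraries, at a log2 ratio of 0.92, within the limit. Kdr had 15, 14 and 17 fragments in the 3 KO libraries and 7 and 8 in WT, at FPKM of at most 0.142. The median log2 ratios of the 10 genes were 0.290 in the Eomes KO, 0.175 in the T KO and 0.264 in the dKO, against -0.013, -0.013 and -0.008 for all genes examined. The former again take in genes below FPKM 1 and the latter do not.

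**Figure D3:**
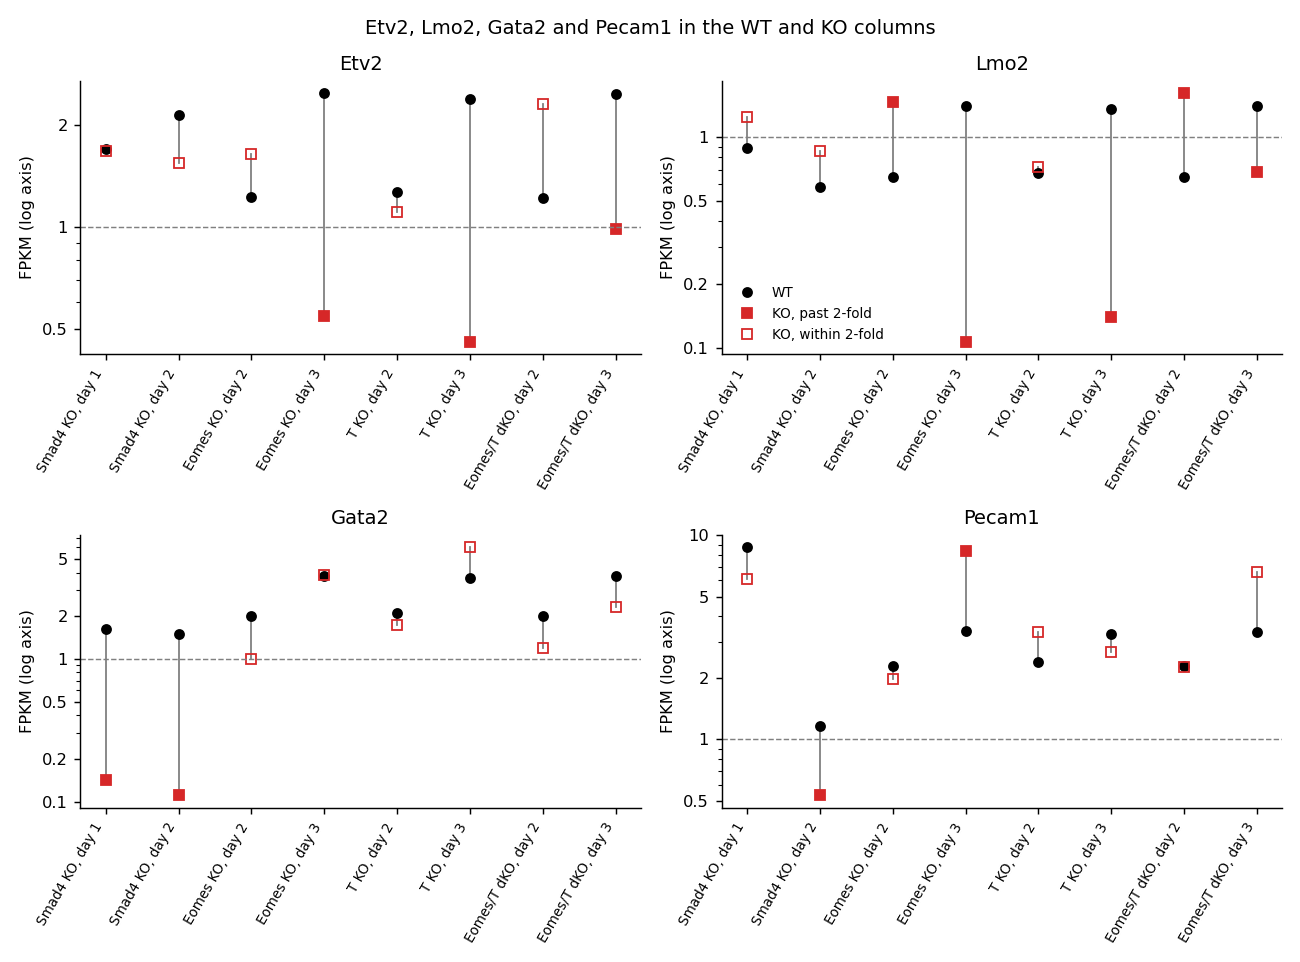
FPKM (log axis) of Etv2, Lmo2, Gata2 and Pecam1 in WT (black) and KO (red) columns of the 8 comparisons, with filled squares where the gene was called and the dashed line at FPKM 1. Lmo2 lay above WT on day 2 and below it on day 3 in the Eomes KO and the dKO, and Gata2 lay about 1 order of magnitude below WT in the Smad4 KO.

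Gata2 was not called in the lines without Eomes or T. On day 3 it was at 3.86 in the Eomes KO, 6.03 in the T KO and 2.29 in the dKO, against 3.80, 3.68 and 3.79 in WT, with log2 ratios of 0.02, 0.71 and -0.73. The T KO level was the highest of all 14 conditions, on about 707 to 731 fragments. On day 2 it was at 1.00 in the Eomes KO, 1.72 in the T KO and 1.20 in the dKO, against 2.00, 2.08 and 1.99. The log2 ratio of -0.99 in the Eomes KO was at the edge of the limit, and with the WT column of the time course it passed it (-1.01). As TPM, which lowered all log2 ratios of each comparison alike, Gata2 was called lower on day 2 in the Eomes KO (-1.21) and in the dKO (-1.15).

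In the Smad4 KO, by contrast, Gata2 fell on both days. It was at FPKM 0.142 against 1.62 on day 1 and at 0.111 against 1.49 on day 2, log2 ratios of -3.51 and -3.75. The KO libraries held about 11 and 12 fragments, and the WT libraries about 120 to 124 and 164 to 170. On day 1 it was the only one of 4 examined genes called, against 4.77% of 11232 genes (2.41% lower and 2.36% higher). On day 2 it was called with Pecam1, 2 of 3, against 5.77% of 10999 genes (3.21% lower and 2.56% higher). The median log2 ratios of all 10 genes were 0.457 and 0.238, and those of all genes examined -0.005 and -0.009, with a pseudocount of 0.1. The former take in genes below FPKM 1, and the members above it did not share this direction. With the pseudocount, Gata2, Pecam1 and Etv2 were at -2.83, -0.515 and -0.0151 on day 1, and Lmo2 at 0.434. On day 2 Gata2, Pecam1 and Etv2 were at -2.91, -0.993 and -0.444. Etv2 had 42 fragments in both day 1 libraries (FPKM 1.70 in WT and 1.68 in the KO), and 79 in WT and 56 in the KO on day 2 (2.14 and 1.55). The ratio of the KO to WT was 0.989 on day 1 (0.629 to 1.55) and 0.723 on day 2 (0.504 to 1.03), so a change of Etv2 was not detectable at this depth. Kdr had 13 and 24 fragments on day 1, and 15 and 13 on day 2. With 1 sample per line and day these differences had no replicate check. The summed FPKM of 9 nascent mesoderm genes also differed between these libraries, at 6.69 in the KO and 38.2 in WT on day 1 and at 5.35 and 110 on day 2, and its part in the level of Gata2 was not tested.

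Pecam1 was higher in lines without Eomes on day 3. It was at 8.37 in the Eomes KO and 6.63 in the dKO, against 3.38 and 3.36 in WT, with log2 ratios of 1.31, called, and 0.98, within the limit. The ratio in the dKO passed the limit with the columns scaled to a median log2 ratio of 0 (1.01) and with the WT column of the time course (1.03). In the T KO it was at 2.67 against 3.27. In the Smad4 KO it was at 6.08 against 8.74 on day 1 and at 0.532 against 1.16 on day 2, where the log2 ratio of -1.12 was called but fell to -0.99 with a pseudocount of 0.1. On day 3 the summed FPKM of the 8 pluripotency genes was 402 in the Eomes KO, 628 in the dKO, 489 in the T KO and 637 in WT. This sum is mostly Pou5f1, at 253, 441, 311 and 465. Zfp42 was at 20.8, 17.8, 15.2 and 12.0 and Sox2 at 35.2, 35.8, 39.5 and 20.4 in the same order, and 0 of 7 examined genes of the list were called in any of the 3 lines. The summed FPKM of 10 fibroblast transcripts was 15.4, 7.08, 5.80 and 7.16 in the same order, and its part in the level of Pecam1 was not tested.

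Below FPKM 1, Fli1 and Runx1 gave the larger KO values. Fli1 had 14 and 14 fragments in the Eomes KO on days 2 and 3, 17 and 4 in the T KO, 29 and 34 in the dKO, against 15 and 0 in the WT libraries of day 2 and 0 and 7 in those of day 3. The dKO libraries (FPKM 0.357 and 0.529) were above every WT library. On day 3 the ratio of the dKO to WT was 12.8 (5.59 to 34.2). In the Smad4 line, Fli1 had 19 fragments in the KO and 0 in WT on day 1, at least 6.26-fold higher, and 20 and 1 on day 2 (ratio 20.4, 3.26 to 845). The WT libraries of day 2, at 15 and 0, differed by about as much. Runx1 was at 0.736 in the Eomes KO on day 3 against 0.314 in WT, its highest level of the 14 conditions.

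Cdh5 and Gata1 remained at a few fragments. Cdh5 reached 17 fragments in the T KO on day 2 (FPKM 0.236) with none in the WT libraries, at least 15.9-fold higher, but on day 3 it had 0 in the T KO and 1 and 14 in WT. In all other KO libraries it had 2 to 5 fragments. Gata1 had 0 to 2 fragments in the KO libraries except for 9 in the T KO on day 3. Tal1 ranged from FPKM 0.0127 in the T KO on day 3 to 0.450 on WT day 1, and in the Smad4 KO it was at 0.298 against 0.141 on day 1. In some comparisons of day 3 the sign of the ratio depended on the WT library taken. For Cdh5 in the Eomes KO the log2 ratio was 1.76 against 1 WT library and -2.18 against the other, and for Gata1 in the dKO it was -1.12 and 1.34.

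**Figure D4:**
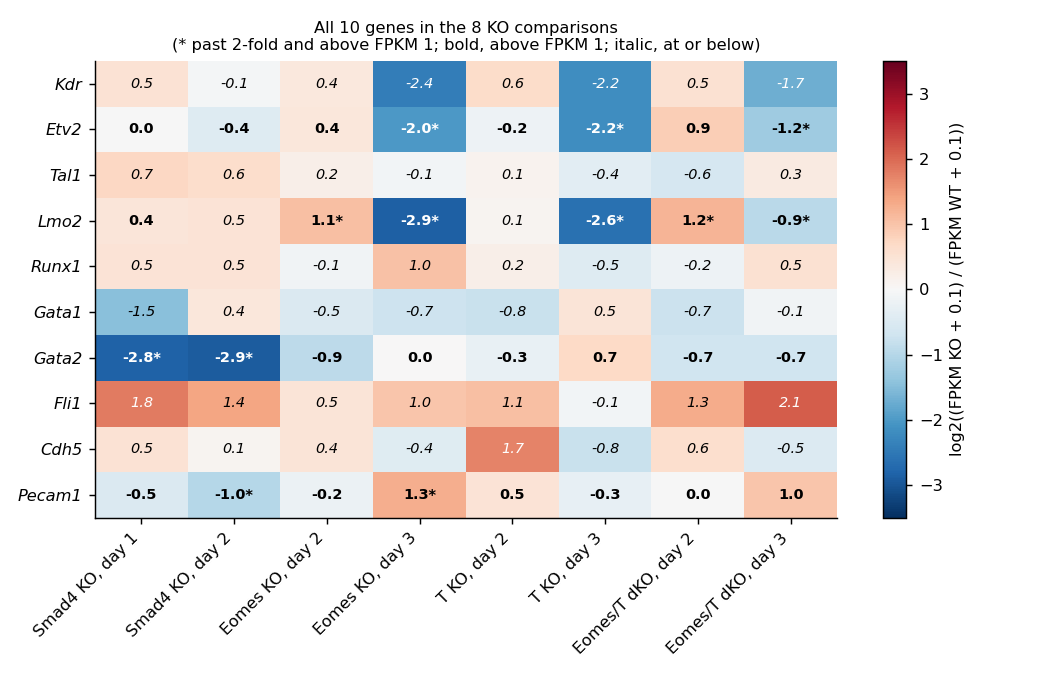
Colour and number give log2((FPKM KO + 0.1)/(FPKM WT + 0.1)) of the 10 genes in the 8 KO comparisons, with an asterisk where a gene was called without the pseudocount, bold for genes above FPKM 1 and italics for the rest. Kdr, Etv2 and Lmo2 were negative in all 3 lines on day 3, Gata2 was at -2.83 and -2.91 in the Smad4 KO, and Fli1 was positive in 7 of 8 comparisons.

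Further genes of the same pathways were taken from lists. That of VEGF ligands and receptors also holds Kdr, and it shares Flt1 and Flt4 with the endothelial surface genes below. Of 9 VEGF ligands and receptors, 3 of 6 examined rose from the ES state to day 3, namely Vegfa (1.39 to 12.5), the ligand of Kdr, Flt1 (0.0710 to 6.07), its decoy receptor, and Pgf (0.576 to 1.99), while Nrp2 (18.5 to 2.30) and Vegfc (5.59 to 0.172) fell. The median log2 ratio of the list was 0.954, against -0.021 for all genes examined. In contrast to Kdr, Flt1 was not lower in the KO lines on day 3, at 10.7 in the Eomes KO, 7.75 in the T KO and 9.96 in the dKO. In the Eomes KO the co-receptor Nrp1 was the only one of 6 called (3.86 against 0.492 in WT), in the dKO Nrp1 was called higher (1.29) and Pgf lower (0.831 against 1.99), and in the T KO Nrp2 was the only one of 5, lower (1.09 against 2.30).

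Of 18 further blood and endothelial transcription factors, 14 never passed FPKM 1, and the rest were Hhex, Mecom, Myb and Klf2. Myb, a factor of proliferating progenitors, fell from 12.6 on WT day 1 to 1.17 on day 3. It was called higher in the Eomes KO (4.93) and the dKO (4.47) on day 3, and Klf2 in the T KO (3.19 against 1.31). In the Smad4 KO, Klf2 was called lower on day 1 (1.71 against 3.85). On day 2 Myb (13.2 against 5.45) and Mecom (1.32 against 0.0264) were called higher there, so higher Myb was not limited to the lines without Eomes. Of 6 partners of Tal1 and Lmo2, 5 were above FPKM 1, among them Ldb1, the adaptor that Lmo2 binds. It fell from 36.7 in ES cells to 13.5 on day 3, and 0 of the 5 were called in any KO comparison.

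Of 19 endothelial surface genes other than the members, 12 passed FPKM 1 in some condition, and 3 of 6 examined rose from WT day 2 to day 3, Apln (2.47 to 25.6), Aplnr (0.0616 to 12.3) and Flt1, while Eng, a BMP co-receptor, fell (1.24 to 0.243). The median log2 ratio of the list was 0.0 there and 0.006 for all genes examined. Apln and its receptor Aplnr were lower in all 3 KO lines on day 3, at 0.390 and 0.0230 in the Eomes KO, 1.33 and 0.0450 in the T KO, and 0.439 and 0.0277 in the dKO. In the Smad4 KO 3 of 6 examined genes of the list were higher on day 1, among them Cd34 (3.58 against 1.46), a surface protein of endothelial and blood progenitors, and 3 of 7 on day 2, again with Cd34 (1.43 against 0.495), while Apln was lower (0.643 against 5.75). Of 16 erythroid and blood cell genes only Kit and Cd68, which are not restricted to blood, passed FPKM 1, and on day 3 in WT 7 of the 16 were listed at 0. In the KO comparisons 0 or 1 of them was called. The markers restricted to blood cells were thus low or at 0, and 7 of the endothelial surface genes never passed FPKM 1. Others did, and Egfl7 was at 13.6 to 28.0 in all 14 conditions, with 15.9 already in ES cells. With the genes of these lists so divided, these cultures cannot be called blood or endothelium from them.

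Lists of other cell types that cultures of this kind can hold gave the following levels. The summed FPKM of 9 nascent mesoderm genes was 481 in WT on day 3 and 15.4, 46.3 and 53.4 in the Eomes KO, the T KO and the dKO, with 8 of 8, 8 of 8 and 7 of 8 examined genes called lower, in the same lines in which Kdr, Etv2 and Lmo2 were low. That of 18 genes of lateral and cardiac mesoderm was 59.1 in WT and 96.6, 56.2 and 61.1 in the same lines, with Hand1 at 20.5, 62.9, 29.5 and 32.2. In each line 5 of its genes were called lower, among them Mesp1 (5.45 in WT and listed at 0 in all 3), of 10, 8 and 9 examined, while 3, 0 and 1 were called higher. For 9 genes of trophoblast and amnion, which also include Gata3 and Hand1, the sum was 1500 in WT and 1590, 1690 and 2120. In the Smad4 line it was 266 in WT and 238 in the KO on day 1 and 467 and 299 on day 2, sums in which the keratins Krt8 and Krt18 make up most. On day 1, 4 of 6 examined genes of this list were called lower in the Smad4 KO, among them Tfap2c (6.34 against 12.8) and Hand1 (0.507 against 1.94), and on day 2 these were called lower again, 2 of 4. The median log2 ratios of the list were -1.0 and -1.251, on the days on which Gata2 was 11.4-fold and 13.4-fold lower. The 10 extraembryonic endoderm genes summed to 2.05 to 8.50 over all conditions, and the 10 fibroblast transcripts to 1.65 to 15.4. The part of these cells in the differences was not tested.

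By Pearson correlation of log2(FPKM + 0.1) over the 14 conditions, the genes most like Etv2 among 12589 others were Dennd2c (r = 0.906), Dcaf13 (0.894) and Seh1l (0.888). Those most like Lmo2 were Zbtb46 (0.862), Hes6 (0.840) and D1Ertd622e (0.822). For Gata2 they were Flvcr2 (0.941), Hand1 (0.936) and Dusp9 (0.928), and for Pecam1 they were Dlc1 (0.880), Slc39a4 (0.876) and Tex14 (0.875). The conditions share lines and stages, and these values are a description. None of the genes named here for likeness was another of the 10.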

How the data were processed

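RNA-seq was performed on 18 samples, and reads were handled by the authors before deposition. Per the submitters' processing notes and the study's methods, reads were trimmed with cutadapt 2.9, aligned to mm10 with HISAT2 2.1.0 and SAMtools 1.9, and summarised against RefSeq genes with Cuffdiff 2.2.1 correcting for multi-mapped reads and sequence bias but not for effective length, each of which can shift single genes. The strand setting is not given in the sources used here. The authors deposited FPKM values, 1 per gene and condition, so replicates are pooled and depth was recovered only from the steps of the values.

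Genes were matched by symbol. Ratios were taken within each table, with the minimum of FPKM 1 and the limit of 1 on the log2 scale stated by the study. Fragments were recovered as whole multiples of FPKM steps (tolerance 0.1), a procedure tested on simulated data. The members and the gene lists were chosen with earlier results of these data known. All 10 members are named. Of other lists, at most 4 called genes per comparison are named, those with the highest FPKM, beside the targeted genes and the 3 genes nearest in pattern to each member above FPKM 1, and Cd68, Hhex, Mecom, Gata3, Krt8, Krt18, Pou5f1, Zfp42, Sox2 and some values of genes that were not called were added after their values were seen. Pseudocounts, TPM, other minimums and limits, median scaling and other WT columns were tried as alternatives, and each WT library alone and removal of a GC and length trend were added after seeing the data. Python 3.11.15, pandas 2.3.3, numpy 2.4.6, scipy 1.17.1 and matplotlib 3.10.9 were used.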

Additional observations from a re-analysis of the deposited data

Results flagged for a closer look

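Lmo2 moved in opposite directions on days 2 and 3 in the lines without Eomes. In the Eomes KO its log2 ratio to WT was 1.18 on day 2 and -3.71 on day 3, a change of -4.89 between the days. In the dKO it was 1.31 on day 2 and -1.04 on day 3, a change of -2.35. Both day 2 values were past the limit of 1, but as TPM they were 0.96 and 0.91. Each KO value is 1 library, both lines are compared with the same WT samples, and the difference between the days was not tested.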

How the results depend on the processing

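Of 102 alternative counts over the 12 comparisons, 61 stayed within 1.5 times the reported count. Of 280 alternative log2 ratios of single genes, 248 moved by less than the spread of 1 F1G4 WT library. This spread was the robust SD of the log2 ratio between the 2 libraries, divided by the square root of 2. Genes at FPKM 1 or above took its value at FPKM 1 to 5, and the others that at FPKM 0.1 to 1. Comparisons ending on day 3 took the spread of day 3, and all others, those of the Smad4 line included, that of day 2. No called value changed sign. With an FPKM minimum of 5, the calls fell to 1 in the Eomes KO on day 3, from WT ES cells to day 3 and from day 1 to day 2, and to 0 in the Smad4 KO on both days, the Eomes KO on day 2, the T KO on day 3, the dKO on both days, ES to day 1 and day 2 to day 3. Without a minimum they were 5 and 4 in the Smad4 KO on days 1 and 2, 3 and 8 in the Eomes KO on days 2 and 3, 4 and 5 in the T KO, 6 and 5 in the dKO, and 6, 6, 5 and 8 from ES to day 1, day 1 to day 2, day 2 to day 3 and ES to day 3. With a log2 limit of 2 they were 0 in the Eomes KO on day 2, in the dKO on both days and from day 2 to day 3, and 1 in the Smad4 KO on day 2 and from day 1 to day 2. With a pseudocount of 0.1 they were 1 in the dKO on day 3 and in the Smad4 KO on day 2, and 0 from day 2 to day 3. With a pseudocount of 1 they were 0 in the Eomes KO on day 2, the dKO on both days, ES to day 1 and day 2 to day 3, and 1 in the Smad4 KO on day 2 and from day 1 to day 2. As TPM, 3 genes were called from ES to day 1, and with the WT column of the time course 2 were called in the Eomes KO on day 2. Equal counts can hold other genes. As TPM the call on day 2 in the Eomes KO and in the dKO was Gata2, lower, in place of Lmo2, higher. With the WT column of the time course the 2 calls in the dKO on day 3 were Etv2 and Pecam1 in place of Etv2 and Lmo2. As TPM each value is divided by the sum of its column, so all log2 ratios of a comparison move by the same amount. On day 2 the sums were 534043 in the Eomes KO and 459542 in its WT column, and 608585 and 458639 for the dKO. The changed calls of Lmo2 and Gata2 came with this shift of all genes. What lay behind the different sums, or behind the change with the WT column of the time course, was not tested. Removing the GC and length trend, chosen after seeing the data, changed no count. The share of all genes called was computed for the main rule only, so the counts at other settings have no background beside them. Without a minimum, the counts take in genes below FPKM 1. At FPKM 0.1 to 1, 44.5% of genes on day 2 and 55.3% on day 3 differed more than 2-fold between the WT libraries.

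No paired analysis was possible because each WT column averages its libraries and the KO lines have 1 sample per day. For the same reason no replicate could be left out of the FPKM values. With each recovered WT library alone, chosen after seeing the data, Etv2 on day 3 lay between -2.14 and -2.23 in the Eomes KO, -2.34 and -2.43 in the T KO and -1.27 and -1.36 in the dKO, while on day 3 Cdh5 in the Eomes KO and the dKO and Gata1 in the dKO, not called, changed sign. Genes below FPKM 1 rest on few fragments, and intervals cover counting error only.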
